A study of Mus musculus with 2 samples.

Results

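Lone narrow CTCF regions are stretches of 100 bp or less that a CTCF ChIP-seq track lists on chromosomes 1 to 19, with the nearest other listed region more than 10 kb and at most 100 kb away. There were 2488 of them among 52254 regions on these chromosomes, or 4.76%, and among 53551 regions in the whole track. A region is a run of touching 25-bp bins that the depositing authors listed as peaks. Distances were measured from edge to edge. Width and distance both come from the track itself, so the number of members and their widths and distances are given as descriptions.

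The track was made from double-negative thymocytes of C57BL/6 mice without Rag1, aged 4 to 8 weeks. These are T cell precursors with neither CD4 nor CD8 on their surface, and without RAG1 they cannot rearrange their antigen receptor genes. The labels describe 1 CTCF immunoprecipitate and 1 input control from the same kind of cell, and do not say how many animals were used. Only the immunoprecipitate was analysed here. The track gives positions with no height or score, so read depth is unknown. With 1 library there was no replicate, and no p-value is given. All intervals are 95% and cover counting error only. They treat regions as independent, which neighbouring regions are not.

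CTCF is a DNA-binding protein with an array of zinc fingers that recognises a long, GC-rich sequence motif. It is found at insulators and, together with the cohesin ring, at the anchors of chromatin loops. In ChIP-seq a protein bound at a point gives a peak about as broad as the sheared fragments allow, and a caller that scores small bins lists only those bins that pass its threshold. A listed width of 25 to 100 bp was shorter than the library fragments of about 200 to 250 bases that were selected on gels.

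Lone narrow regions were a minor class among CTCF regions at the same distance from their neighbours. Of the 16972 autosomal regions with a nearest distance over 10 and up to 100 kb, here called lone regions, 14.7% were 100 bp or narrower (exact interval 14.1 to 15.2%). The class used for comparison was lone broad regions of 500 to 700 bp, with 8315 members, 49.0% of lone regions and 3.34 for each lone narrow region. Lone narrow regions covered 148 kb in all, 2.09% of the length of lone regions, whereas lone broad regions covered 68.5% of it.

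The exact widths of lone narrow regions fell off slowly. There were 719 regions of 25 bp, which is a single bin, 643 of 50 bp, 586 of 75 bp and 540 of 100 bp. Just outside the width limit stood 528 lone regions of 125 bp, so the limit of 100 bp marked no break. Numbers went on falling to 254 at 250 bp, before a local peak of 993 at 325 bp and the highest number, 1621, at 600 bp within the broad class.

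Single bins were much more frequent among narrow regions that lay beside another region. Of the 5665 narrow regions with another region within 200 bp, 42.7% (41.4 to 44.0%) were 25 bp wide, compared with 28.9% (27.1 to 30.7%) of lone narrow regions. The ratio of 25-bp to 100-bp regions was 3.25 beside another region and 1.33 among lone narrow regions. Beyond 1 kb the mix of widths changed little with distance. The share at 25 bp was 29.5% (27.7 to 31.5%) at 1 to 10 kb and 29.4% (25.3 to 33.8%) among the 469 narrow regions over 100 kb from any other.

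**Figure D1:**
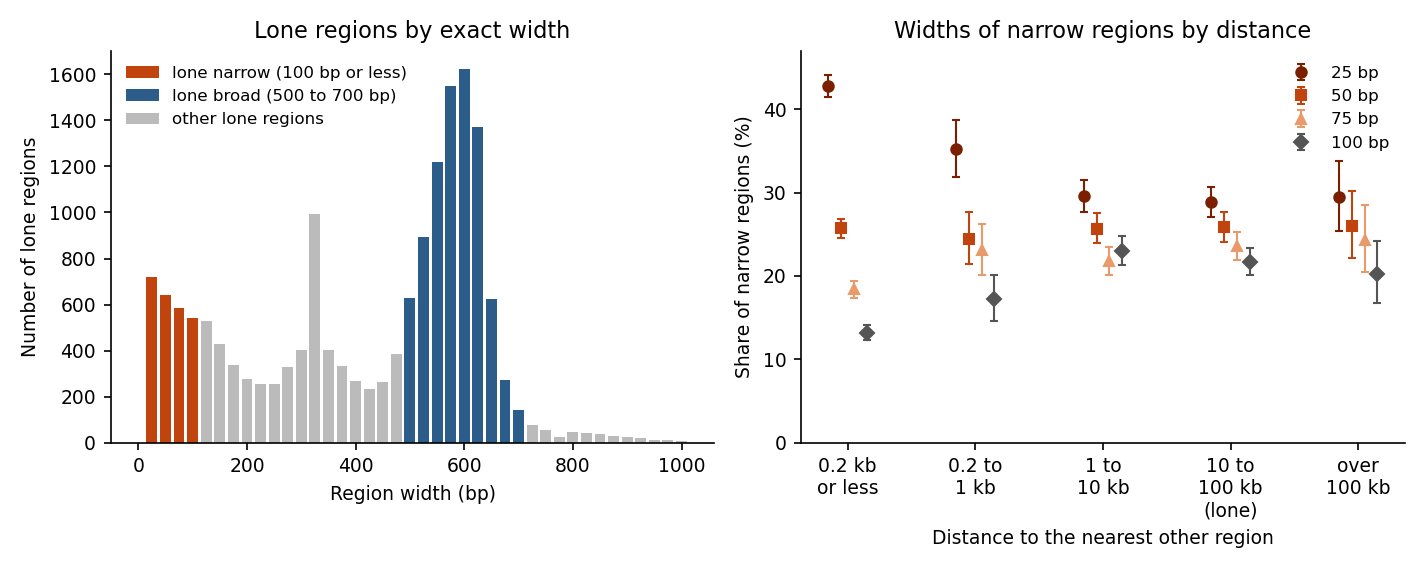
Left, number of lone regions (vertical axis) by exact width in bp, with lone narrow regions in orange, lone broad regions in blue and other lone regions in grey, up to 1000 bp. Right, share of narrow regions (percent) that were 25, 50, 75 or 100 bp wide, by distance to the nearest region, with exact 95% intervals; the share at 25 bp falls from 42.7% within 200 bp to 28.9% among lone narrow regions.

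The narrow share of all regions was not lowest among the most isolated ones. It was 52.2% where another region lay within 200 bp, 17.1% at 200 bp to 1 kb and 12.6% at 1 to 10 kb, then 14.7% for lone regions and 29.2% beyond 100 kb. Within the lone distances it was 13.4% (12.4 to 14.4%) at 10 to 15 kb and 18.4% (16.9 to 20.02%) at 50 to 100 kb. The share of lone broad regions moved the other way, from 51.9% (50.4 to 53.3%) to 42.0% (40.0 to 44.0%). Width within the narrow class did not follow distance in the same way. The share of 25-bp regions among lone narrow regions was 29.0% at 10 to 15 kb and 31.6% at 50 to 100 kb, and the intervals overlapped.

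The regions on either side of each distance limit were picked by distance alone, so they cannot show whether members differ from regions left out. The 2 members nearest to the lower limit lay 10.025 kb from another region. One was 100 bp wide on chromosome 1 (36501196 to 36501295, mm9, as are all positions here), the other 25 bp wide on chromosome 12 (16679961 to 16679985). The closest narrow regions left out lay at 9.975 kb, on chromosome 2 (103523399 to 103523448) and chromosome 10 (58011703 to 58011752), each 50 bp wide. At the upper limit the last members inside were 75 bp wide at 99.325 kb on chromosome 9 (87868526 to 87868600) and 50 bp wide at 99.225 kb on chromosome 12 (120564036 to 120564085). The next narrow regions outside lay at 100.1 kb on chromosome 17 and at 100.325 kb on chromosome 4.

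Lone narrow regions were present on every autosome and followed the general density of CTCF regions there. Their number per Mb of span, taken between the outermost regions of a chromosome, was highest on chromosome 9 with 1.34 (exact Poisson interval 1.14 to 1.56, 162 regions) and chromosome 11 with 1.32 (1.12 to 1.55, 157 regions). It was lowest on chromosome 18 with 0.787 (0.612 to 0.996, 69 regions) and chromosome 15 with 0.788 (0.624 to 0.982, 79 regions). The highest exceeded the lowest 1.70-fold. Lone broad regions ranged 1.63-fold, but between other chromosomes, from 2.87 per Mb on chromosome 3 to 4.68 per Mb on chromosome 19.

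The narrow share of lone regions varied less than their density. It was highest on chromosome 17, at 16.8% (14.1 to 19.8%, 119 of 707 lone regions), and chromosome 9, at 16.4% (14.1 to 18.8%). It was lowest on chromosome 15, at 12.0% (9.58 to 14.7%, 79 of 661), and chromosome 18, at 12.5% (9.86 to 15.6%). The intervals of the highest and the lowest chromosome overlapped, as did those of all 19 autosomes. Chromosome 19 combined the highest density of lone broad regions with a low narrow share of 12.8% (10.0 to 16.0%). Chromosome 15 also had the lowest share of single bins among its lone narrow regions, 20.3% of 79, against up to 34.8% of 115 on chromosome 13. On chromosome X, which the rule leaves out, the same limits found 79 narrow among 560 lone regions, 14.1% (11.3 to 17.3%), within the autosomal range.

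Across the 19 autosomes, the density of lone narrow regions went with that of all regions, of which they are a part, with Pearson's r of 0.78 and Spearman's rho of 0.80. For lone broad regions these values were 0.89 and 0.91. With protein-coding genes per Mb, r was 0.71 for lone narrow and 0.80 for lone broad regions. Genes were counted by chromosome only, from RefSeq on GRCm38. The narrow share of lone regions showed next to no relation to either density, with r of 0.09 for all regions and 0.13 for genes. All these densities share the span as denominator, and chromosomes are not replicates, so the values describe this map.

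**Figure D2:**
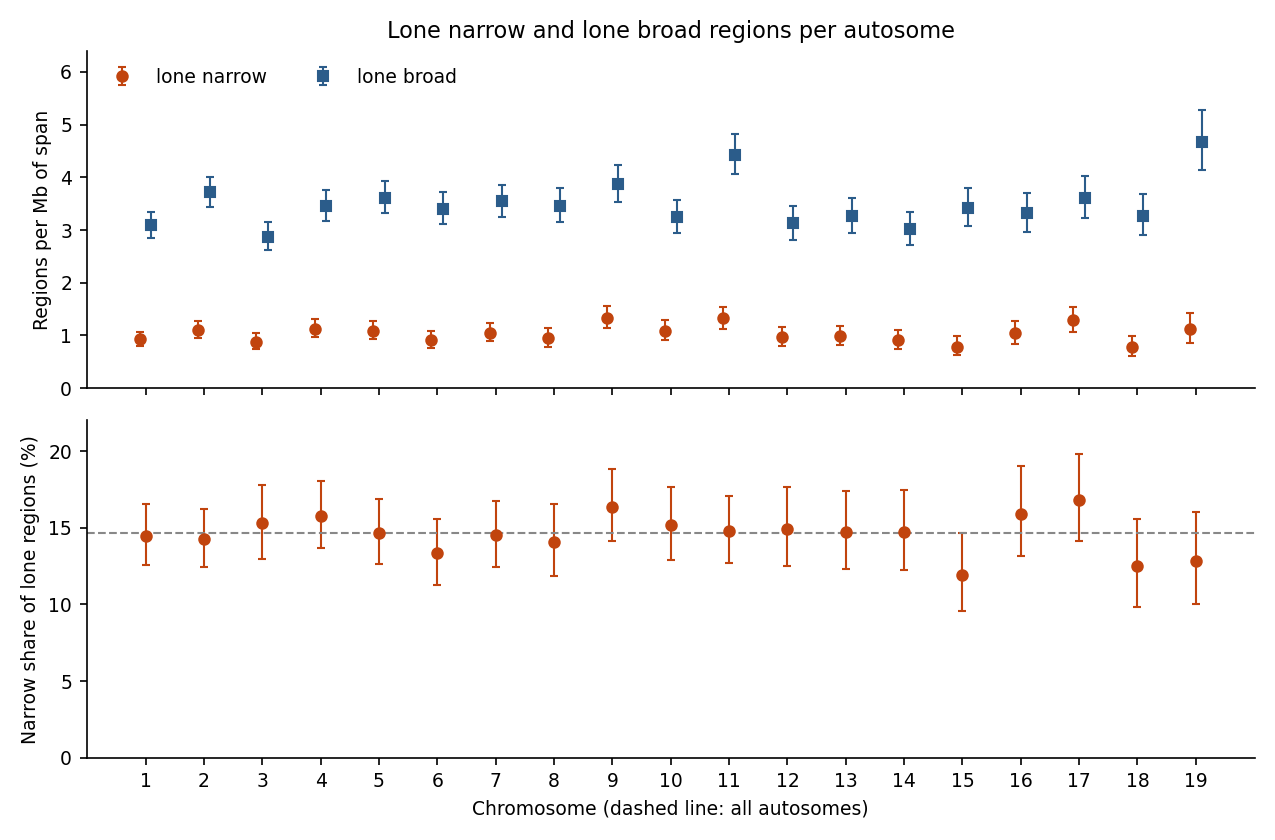
Upper panel, lone narrow (orange circles) and lone broad (blue squares) regions per Mb of span for each autosome, with exact Poisson 95% intervals. Lower panel, narrow share of lone regions (percent) with exact binomial 95% intervals; the points lie between 12.0% on chromosome 15 and 16.8% on chromosome 17, around the dashed line at 14.7% for all autosomes.

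Lone narrow regions lay in somewhat sparser surroundings than lone broad ones. Local density was the number of other regions with their centre within 500 kb on either side, a neighbourhood of 1 Mb in all. Its median was 26.5 for lone narrow regions (interval of the median 26 to 27, quartiles 16 and 39) and 29 for lone broad regions (28 to 29, quartiles 19 and 43). The ranges between quartiles thus overlapped widely, and the full ranges were 1 to 93 and 1 to 112. Counting only neighbours wider than 100 bp gave medians of 21 and 23, and both classes had a median of 6 narrow neighbours.

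The difference was clearest at the sparse end. Of lone narrow regions, 11.9% had 10 or fewer other regions in the neighbourhood, against 7.72% of lone broad regions, a difference of 4.22 percentage points (Newcombe interval 2.86 to 5.66). With 5 or fewer others the shares were 3.98% and 1.68%. Lone regions of 125 to 200 bp were much like lone narrow ones here, with 11.5% at 10 or fewer others and 4.58% at 5 or fewer. More than 50 others surrounded 13.5% of lone narrow and 16.9% of lone broad regions, a difference of -3.42 points (-4.95 to -1.82). For lone regions of 125 to 200 bp it was 13.4%. Seen from the surroundings, narrow regions made up 23.9% (19.9 to 28.3%) of the 414 lone regions with at most 5 others. That share was 17.8% (15.6 to 20.2%) with 6 to 10 others, 14.1% (13.2 to 15.1%) with 31 to 50 and 12.2% (10.99 to 13.5%) with more than 50. Broad regions made up 33.8% (29.3 to 38.6%) of lone regions in the sparsest class and 51.1% (49.2 to 53.0%) in the densest.

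Lone narrow and lone broad regions shared the limits of the nearest distance but not its distribution. The median nearest distance was 23.7 kb for lone narrow (quartiles 15.3 and 41.2 kb) and 21.2 kb for lone broad regions (14.4 and 34.3 kb). Over 50 kb lay 17.8% of the former and 12.2% of the latter. This was not particular to narrow regions, with 17.0% for lone regions of 125 to 200 bp and 17.3% for those of 225 to 300 bp. With lone broad regions weighted to the distances of lone narrow ones, the ratio of median densities was 0.946 in place of 0.914.

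Within classes of distance, the difference in sparse surroundings was larger beyond 20 kb than at 10 to 20 kb, a contrast that was not itself tested. At 10 to 20 kb, 5.46% of lone narrow and 4.79% of lone broad regions had 10 or fewer others, and the interval of the difference, -0.761 to 2.35 points, included 0, which does not show that they were alike. With 5 or fewer others, the shares at 10 to 20 kb were 1.46% and 0.902%, a difference of 0.560 points (-0.112 to 1.53). The difference was 0.0931 points (-0.696 to 1.37) at 10 to 15 kb. At 15 to 20 kb the shares were 1.86% and 0.639%, a difference of 1.23 points (0.165 to 3.02), from 8 and 10 regions. At 20 to 100 kb, 16.5% and 10.3% had 10 or fewer others, a difference of 6.20 points (4.16 to 8.37). The gap was widest at 50 to 100 kb, where 28.2% of 443 lone narrow and 19.9% of 1011 lone broad regions had 10 or fewer others. There, with at most 5 others around, narrow regions numbered 58 and broad regions 53. In no other class of distance and density that was examined did lone narrow regions outnumber lone broad ones.

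**Figure D3:**
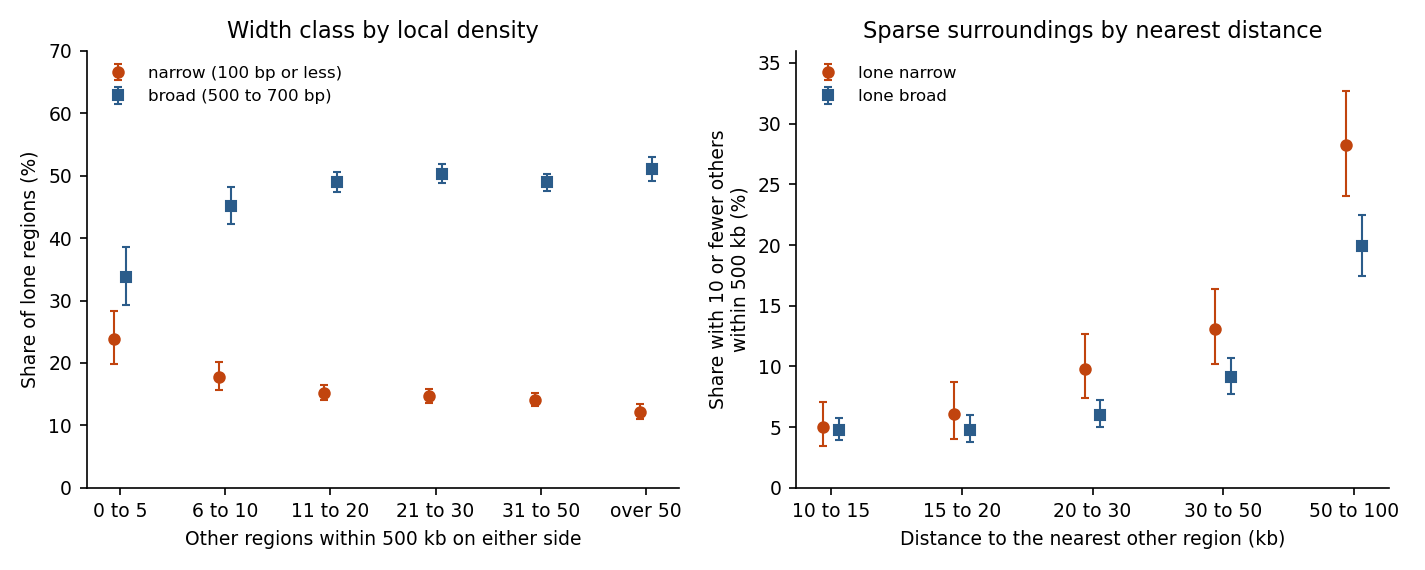
Left, narrow (orange circles) and broad (blue squares) shares of lone regions (percent) by the number of other regions within 500 kb on either side; the narrow share falls from 23.9% to 12.2% from the sparsest to the densest class. Right, share of each class (percent) with 10 or fewer other regions within 500 kb, by distance to the nearest region in kb; at 50 to 100 kb it was 28.2% for lone narrow and 19.9% for lone broad regions. Bars are exact 95% intervals.

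Extremes of density show the range of settings. The member with the most neighbours was 75 bp wide on chromosome 7 (52492780 to 52492854), with 93 other regions within 500 kb and, as for every member by the rule, none within 10 kb. The next number, 89, was shared by 3 members, among them a 25-bp region on chromosome 11 (69804946 to 69804970) and a 50-bp region on chromosome 7 (19700555 to 19700604). The fewest neighbours, 1 each, were found for 5 members. The 3 of these in the longest stretches between wider regions were 25 bp wide on chromosome 2 (89361324 to 89361348), 25 bp wide on chromosome 3 (139993644 to 139993668) and 100 bp wide on chromosome 10 (27562053 to 27562152). Their single neighbours lay 67.0, 56.6 and 80.4 kb away and were 175, 175 and 525 bp wide.

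In windows of 1 Mb, lone narrow regions were thinly spread. Of the 2323 autosomal windows that held any region, 945 held no lone narrow region, 691 held 1 and 396 held 2. In 186 windows lone narrow regions outnumbered lone broad ones, and 105 windows had a lone narrow but no lone broad region. The largest number, 7 with 6 lone broad regions, was at 47 to 48 Mb on chromosome 17, a window with 80 regions in all. Another 4 windows held 6, among them 26 to 27 Mb on chromosome 17 and 97 to 98 Mb on chromosome 7. These windows were picked by their counts after the values were seen. Along the chromosomes, the narrow share of lone regions was 16.0% (14.1 to 18.1%) in the first 10% of the span and 13.7% (12.3 to 15.2%) in the last 10%, and those intervals overlapped.

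Between the flanking wider regions, lone narrow regions lay much as lone broad ones did, with a median slightly nearer to a flank over all distances but not at 10 to 20 kb. Flanks were the nearest regions over 100 bp wide on each side, and relative position was the distance to the nearer flank divided by the sum of both distances, so that 0 is at a flank and 0.5 midway. The median was 0.299 for lone narrow regions (interval 0.290 to 0.307) and 0.308 for lone broad regions (0.304 to 0.313). The difference of medians was -0.00866, and -0.0130 with lone broad regions weighted to the distances of lone narrow ones. Lone regions of 125 to 200 bp had a median of 0.304 and those of 325 bp one of 0.303. At 10 to 15 kb the medians of lone narrow and lone broad regions were 0.260 and 0.259, and at 15 to 20 kb 0.301 and 0.293. Only beyond 20 kb was the median of lone narrow regions the lower one. Positions under 0.1 were taken by 8.85% of lone narrow and 7.82% of lone broad regions. Positions of 0.4 or more were taken by 24.9% and 26.7%. Over all distances both differences had intervals that included 0, which does not show that the positions were alike. Beyond 20 kb, 28.4% of lone narrow and 31.6% of lone broad regions lay at 0.4 or more, a difference of -3.19 points (-5.83 to -0.459). That difference was -4.23 points (-8.35 to 0.154) at 20 to 30 kb and -5.11 (-9.54 to -0.419) at 30 to 50 kb. At 50 to 100 kb it was only -0.750 points (-5.93 to 4.60). There was no preferred side, with the nearest region at lower coordinates for 49.96% (47.98 to 51.9%) of lone narrow regions.

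The stretches between flanks were longer around lone narrow regions. The median stretch was 104 kb (interval 99.4 to 109 kb) for lone narrow and 89.3 kb (87.2 to 91.1 kb) for lone broad regions. Stretches over 200 kb surrounded 23.7% and 16.7%, a difference of 7.06 points (5.23 to 8.94), and stretches over 500 kb surrounded 6.23% and 3.52%. For lone regions of 125 to 200 bp these shares were 23.0% and 5.85%, close to those of lone narrow regions. At nearest distances of 10 to 15 kb the medians were close, 54.4 and 53.2 kb, and at 15 to 20 kb the order was the other way, 64.7 kb for lone narrow and 65.1 kb for lone broad regions. At 30 to 50 kb they were 137 and 124 kb.

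**Figure D4:**
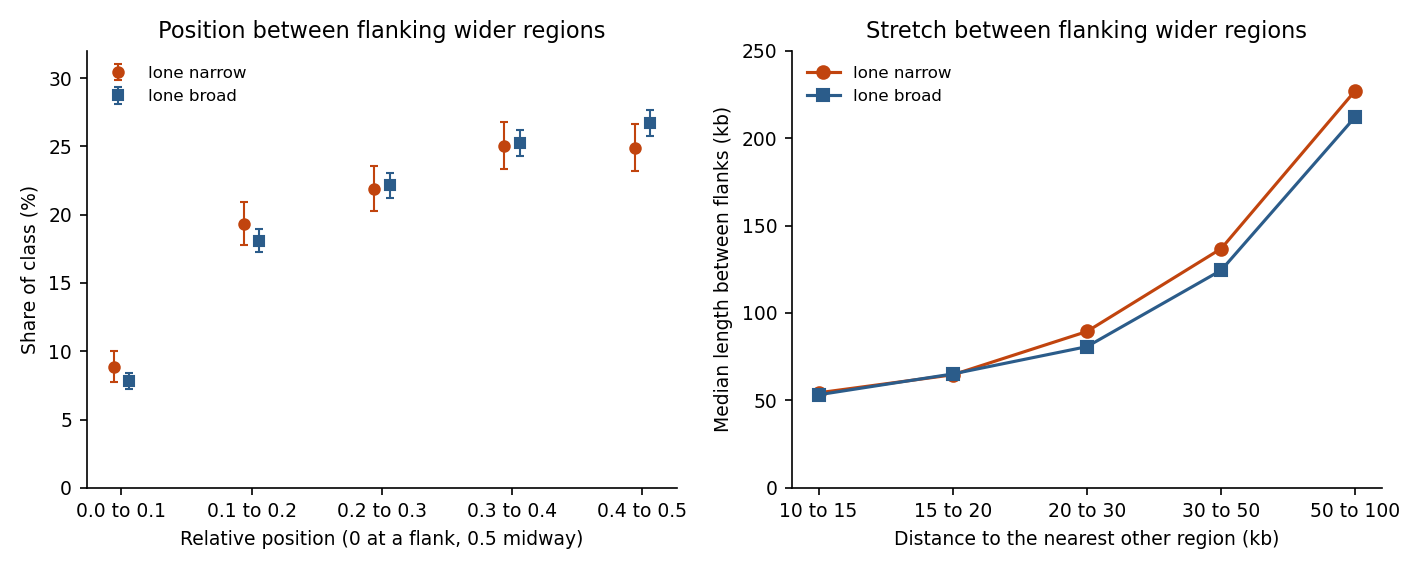
Left, share of lone narrow (orange circles) and lone broad (blue squares) regions (percent) by relative position between flanking wider regions, with exact 95% intervals; both are lowest next to a flank, at 8.85% and 7.82%, and reach 24.9% and 26.7% at 0.4 to 0.5. Right, median length in kb of the stretch between flanks by distance to the nearest region; the medians are 54.4 and 53.2 kb at 10 to 15 kb, and 137 and 124 kb at 30 to 50 kb.

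Named members illustrate both ends of this range. The 25-bp region on chromosome 4 at 82969761 to 82969785 lay exactly midway, 19.975 kb from a 575-bp region on either side. A 75-bp region on chromosome 13 (105307896 to 105307970) and a 100-bp region on chromosome 17 (87681527 to 87681626) each had distances to both flanks that differed by 25 bp, with the nearer flank at 72.0 and 32.55 kb. The most one-sided member, and the one in the longest stretch, was 25 bp wide on chromosome 7 (46744230 to 46744254). It lay 28.7 kb from the upper flank and 7692 kb from the lower one. The next smallest positions, 0.00547 and 0.00590, were those of a 25-bp region on chromosome 3 (13848769 to 13848793) and a 50-bp region on chromosome 12 (22021061 to 22021110).

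The longest stretches of the other widths were shorter. A 50-bp member (119194044 to 119194093) and a 75-bp member (120371769 to 120371843) shared a stretch of 2319 kb on chromosome 3. The 100-bp member with the longest stretch, 3636 kb, was on chromosome 14 (97268545 to 97268644), 84.9 kb from its upper flank. The track does not record which parts of such stretches could be mapped.

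Lone narrow regions had a narrow nearest neighbour slightly more often than lone broad regions did. The nearest region was 100 bp or less for 18.9% (17.3 to 20.4%) of lone narrow and 17.0% (16.2 to 17.8%) of lone broad regions, a difference of 1.86 points (0.157 to 3.63). This was not particular to narrow regions. The share was 18.8% for lone regions of 125 to 200 bp, 18.9% for those of 325 bp and 17.5% for all lone regions. It was another lone narrow region for 10.5% and 8.29%, a difference of 2.16 points (0.869 to 3.55). A broad nearest region of 500 to 700 bp was found for 45.6% and 49.3%, a difference of -3.73 points (-5.95 to -1.49). Among members, the share with a narrow nearest region was 20.4% (17.6 to 23.6%) for 25-bp regions and 14.8% (11.9 to 18.1%) for 100-bp regions. At 50 and 75 bp it was 19.1% and 20.3%. The separate intervals at 25 and 100 bp overlapped only slightly, and the difference between these 2 widths was not itself tested.

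Most lone narrow regions had their stretch to themselves. Both next regions were wider than 100 bp for 64.6% of lone narrow and 67.2% of lone broad regions. The members fell into 2242 stretches between flanks, of which 2024 held a single one. The other members, 464 or 18.6%, shared a stretch, up to 5 in one, and are not independent of each other.

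Consecutive lone narrow regions, with no other region between them, formed 188 pairs, 21 runs of 3 and 3 runs of 4. The runs of 4 lay on chromosome 1 (105329896 to 105510245), chromosome 3 (103345244 to 103521518) and chromosome 14 (49201870 to 49431869). On chromosome 1 the 4 regions, of 25, 100, 50 and 50 bp, lay inside a stretch of 1981 kb without wider regions, more than 800 kb from the lower flank. Each had 4 or 5 other regions within 500 kb. On chromosome 3 the setting was much denser, with 36 to 39 others, and the run ended 19.95 kb from a wide region of 1200 bp. On chromosome 14 the 4 regions of 75, 25, 25 and 100 bp had 24 to 28 others, and the stretch of 484 kb began at a 900-bp region.

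Within the narrow class, the exact width made little difference to local density, length of the stretch or relative position. Median local density was 27 (interval 25 to 29) at 25 bp, 25 (23 to 27) at 50 bp, 28 (26 to 31) at 75 bp and 26 (25 to 28) at 100 bp. Median stretches ran from 102 to 106 kb and median relative positions from 0.289 to 0.310, each with overlapping intervals. Lone regions of 125 to 200 bp, just beyond the limit, had a median density of 27 (26 to 28) and a median stretch of 102 kb (96.2 to 107 kb), within the range of the 4 narrow widths. The median stretch was 94.1 kb (89.8 to 98.2 kb) at 225 to 300 bp and 82.4 kb (76.0 to 87.2 kb) over 700 bp, where the median density was 34 (31 to 37). Of the lone width classes compared, the narrow class thus had the longest median stretch and the lowest median density, with 125 to 200 bp close to it on both measures.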

How the data were processed

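ChIP-seq for CTCF was made from formaldehyde-fixed thymocyte chromatin, per the labels' protocols. Bowtie and mm9 are named in the submitters' processing notes. Neither labels nor header name the peak caller, its threshold or any use of the input (not given in the sources used here). The authors deposited 825544 bins of 25 bp as positions only, in no other unit, so depth and precision per region are unknown.

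Touching bins were joined, and positions were converted to 1-based coordinates. Shares have exact binomial, counts exact Poisson and medians exact order-statistic intervals; differences of shares have Newcombe intervals. Code was tested on simulated regions with known widths and gaps. Intervals came from scipy 1.17.1 and statsmodels 0.14.6, tables from pandas 2.3.3 and numpy 2.4.6, figures from matplotlib 3.10.9, under Python 3.11.15.

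The members and comparisons were chosen with earlier results of these data known. Named regions followed a written rule: longest stretch per width, extremes of local density and position, longest runs, and members at the distance limits. The classes of distance and density, and the windows named, were set after the values were seen. Sequence, motifs and genes at the regions were not analysed here, because no mm9 genome was used.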

Additional observations from a re-analysis of the deposited data

How the results depend on the processing

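Alternatives gave 53 values for 6 results. Of these, 42 stayed close to the reported value and 11 did not. No comparison of lone narrow with lone broad regions changed direction. The number of members, their share and the range over autosomes have no direction that could change. Close meant within 1.5 times the number of members, or within the interval of the other values. For the range over autosomes it meant a lowest and highest share inside the intervals reported for chromosomes 15 and 17. The intervals for the density ratio and the position held the lone broad median fixed. They left out its error and are therefore too narrow. Of the 42, 3 could not change by construction, and 3 of the 53 alternatives were chosen after seeing the data. With 50 bp or less as narrow, the 2488 members became 1362, their share of lone regions was 8.02% in place of 14.7%, and the highest autosomal share was 1.67 times the lowest in place of 1.41. At nearest distances over 20 kb there were 1462 members, with a share of 15.5% and a difference in median position from broad regions of -0.0183 in place of -0.00866. Joining regions within 200 bp gave a share of 13.3%. With distance taken to the nearest wider region, the share was 16.6% and the ratio of median densities 0.967 in place of 0.914. Other narrow regions could then lie close to either class. The nearest region was narrow for 40.5% of lone narrow and 27.0% of lone broad regions, an excess of 13.6 points in place of 1.86. Weighting to equal distances gave a ratio of 0.946. The smaller numbers of members under stricter limits, and the smaller share at 50 bp or less, follow from the limits themselves. Causes of the other changes were not tested. There was 1 library. No paired analysis was possible because the track has no second sample. Without heights or depth, sites that the threshold left out cannot be seen.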
